A study of Rattus norvegicus with 18 samples.

Results

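Cytosolic ribosomal proteins build the ribosome that translates the messenger RNAs of the nucleus. In these rat livers they were followed through the probe sets whose gene symbol starts with Rpl or Rps and a digit, or is Rplp0, Rplp1, Rplp2 or Rpsa. S6 kinase genes (Rps6k) and pseudogene symbols ending in -ps, with or without a number, were left out. A probe set that carries several gene symbols stood for no gene, and where a gene had more than 1 probe set the brightest was taken. This gave 48 genes of the 14217 measured, and the tests below rest on 1 probe set for each. Rplp1, Rplp2, Rps19, Rps27, Rps27a, Rpl22l1, Rpl36a and Rpl36al were not analysed here, as none of the annotated probe sets used listed them alone.

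Livers came from male Wistar rats given a semi-synthetic AIN-93 diet from weaning, with 4% fat by weight. Each diet had a single oil as its fat, either virgin olive, sunflower or fish oil. Food was unrestricted for 2 months and then 25 g per rat and day, and rats were killed at 6 months ("young") or 24 months ("old"). The 3 oils and 2 ages made 6 groups of 3 rats, with 1 Affymetrix Rat Genome 230 2.0 array per liver. The design asked what age and the type of fat change in the liver. All groups shared the base diet, the fat content and the ration, so the oils are compared with each other and not with a diet free of them.

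A ribosome has a large subunit, which joins amino acids, and a small subunit, which reads the messenger. Each subunit is a scaffold of ribosomal RNA carrying many small basic proteins, the Rpl proteins on the large and the Rps proteins on the small subunit. Most of their messenger RNAs begin with a C and a run of pyrimidines, the 5′ TOP motif, through which the kinase mTORC1 and the RNA-binding protein LARP1 hold their translation in step with nutrients. In the liver, the main source of the proteins of the blood plasma, these messengers are abundant.

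The start of the gene is therefore shown for a few genes whose values follow, as an example of the shared motif and of annotated starts where it was not found. Each window runs from 30 bases before to 20 bases after the first base of the gene as annotated by RefSeq in GRCr8, 5′ to 3′, and capitals mark a C at that base with the pyrimidines that follow it. The first 5 have such a start, and the last 3 do not.
Rpl19: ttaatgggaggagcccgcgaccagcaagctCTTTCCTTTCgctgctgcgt
Rps15: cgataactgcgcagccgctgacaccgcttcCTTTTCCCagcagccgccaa
Rplp0: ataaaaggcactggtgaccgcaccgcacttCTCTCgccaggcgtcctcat
Rpl34: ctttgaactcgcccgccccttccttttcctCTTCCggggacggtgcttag
Rpl39: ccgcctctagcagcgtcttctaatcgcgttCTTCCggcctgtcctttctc
Rps28: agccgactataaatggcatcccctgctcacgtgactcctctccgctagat
Rpl3: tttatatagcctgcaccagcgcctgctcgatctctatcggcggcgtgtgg
Rps6: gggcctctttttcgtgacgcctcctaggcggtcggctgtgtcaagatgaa

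The window of Rpl19 lies at chr10:83519034-83519083 on the plus strand, that of Rps15 at chr7:10068096-10068145 on the minus strand, and that of Rplp0 at chr12:46718371-46718420 on the minus strand. The window of Rpl34 lies at chr2:221962264-221962313 on the minus strand and that of Rpl39 at chrX:121195877-121195926 on the minus strand. The window of Rps28 lies at chr7:15311314-15311363 on the minus strand, that of Rpl3 at chr7:113507971-113508020 on the minus strand, and that of Rps6 at chr5:106420521-106420570 on the minus strand. All of them span the upstream sequence and the first bases of the first exon. RefSeq promoter windows were found for 43 of the 48 genes. The starts of Rpl23a, Rpl27, Rpl30, Rpl7 and Rps29 were not analysed here.

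A C followed by at least 4 pyrimidines at the annotated start, read on the sense strand, was found in 12 of the 43 genes (27.9%) and in 722 of all 27455 promoters (2.63%). The 12 were Rpl14, Rpl19, Rpl22, Rpl28, Rpl34, Rpl35, Rpl35a, Rpl37a, Rpl39, Rplp0, Rps15 and Rps3a. An annotated start that is off by a few bases hides the motif, and the other genes are not shown to lack it. In the 300 bases from 250 before to 50 after the start, on either strand, CCGGAA was found in 17 of the 43 (39.5%) and in 15.8% of all promoters. Rpl34, Rpl39 and Rps6 were among the 17. TATAAA was found in 6 (14%, against 14.3%). These matches describe letters in a window and show no binding.

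The ribosomal protein probe sets were among the brightest on the array. Signals are the linear intensities as deposited, and levels and differences are on the log2(signal + 16) scale, which makes changes of dim probe sets smaller than they are. Of the 48 genes, 38 had a mean level of at least 10 over the 18 arrays and are called bright below. They comprised 26 large-subunit and 12 small-subunit genes, all among the 500 brightest genes, whereas 6.01% of all genes reached that level. The 3 brightest were Rps29 (level 12.9), a zinc-binding protein of the small subunit, Rpl26 (12.64) and Rpl7a (12.29). These levels belong to probe sets and do not rank the genes by abundance.

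The other 10 genes were dim. Of these, 7 had a level under 6: Rpl28 (4.32), Rpl3l (4.37), Rpl30 (4.57), Rpl39l1 (4.57), Rps13 (4.79), Rpl26l1 (5.12) and Rpl39 (5.60). Rps4y2 (6.30), Rps27l (8.0) and Rpl7l1 (8.75) were in between. Rpl3l, Rpl26l1, Rpl39l1, Rps27l and Rps4y2 are close copies of core ribosomal proteins, and Rpl7l1 is a relative of Rpl7. Rpl28, Rpl30, Rpl39 and Rps13, in contrast, encode core proteins of every ribosome, so their low signal describes these probe sets. Several probe sets may share sequence with processed pseudogenes, of which ribosomal proteins have many, and this was not tested.

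Together the 48 probe sets gave 2.69% ± 0.188 of all signal on the young arrays and 2.48% ± 0.315 on the old (SD, n = 9 each). By group the share was 2.68% ± 0.316 with olive oil, 2.69% ± 0.0404 with sunflower oil and 2.70% ± 0.2 with fish oil at 6 months. At 24 months it was 2.63% ± 0.538, 2.36% ± 0.085 and 2.46% ± 0.215 (SD, n = 3 each). The first array of the old olive oil group was at 3.25%. Without that array the old mean was 2.39% ± 0.14 (n = 8).

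Several facts of the arrays touch every result below. The hepatocyte marker albumin (Alb) had a signal of 7462 to 12350, high on each array. The median over all probe sets was 15.5 to 18.4 on young and 18.5 to 20.6 on old arrays, while the mean after 2% was trimmed from each end was 99.17 to 99.39 on all of them. The first olive oil array at 24 months stood apart in the ribosomal proteins: all 38 bright genes were above their own mean there, by a median of 0.40, against 0.11 for the 817 other bright genes. On the other 8 old arrays that median lay between -0.26 and -0.06, and on the 9 young arrays between -0.07 and 0.20. The third fish oil array at 24 months was low in the other bright genes (-0.33) and not in the ribosomal proteins (-0.06). The labels name no batch, and any cohort or array batch that went with age cannot be told apart from age.

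**Figure D1:**
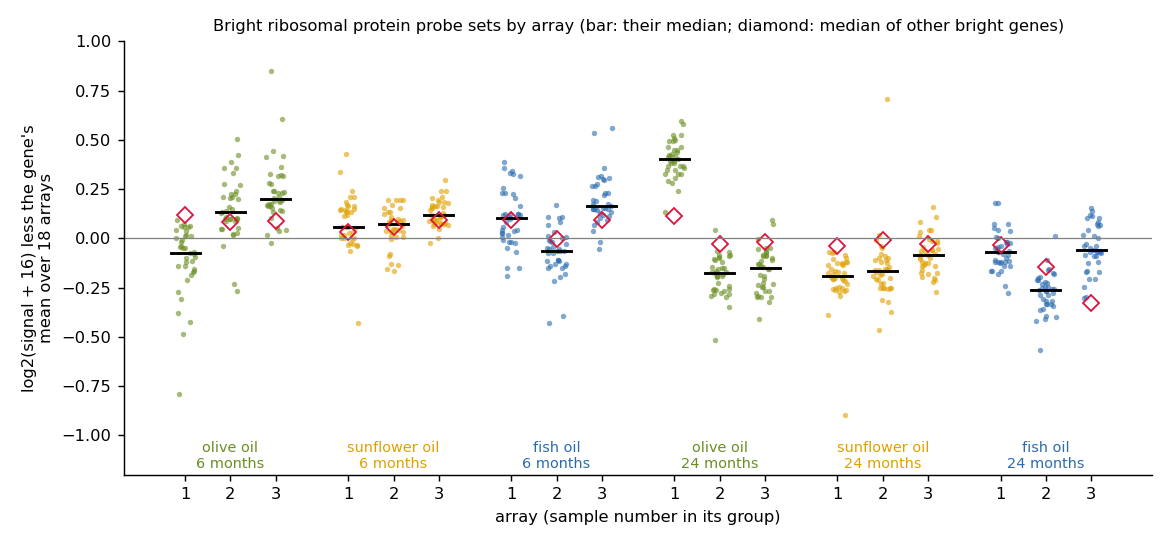
Level of the 38 bright ribosomal protein genes on each of the 18 arrays (x axis, sample number in its group), as log2(signal + 16) less the mean of that gene over all arrays (y axis); points are genes, bars their median on that array, and open diamonds the median of 817 other bright genes. The genes of an array moved together, and the first olive oil array at 24 months lay highest, at a median of 0.40.

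Old livers had slightly lower ribosomal protein signals than young livers, and no gene passed the main test. Averaged over the 3 oils, 42 of the 48 differences (old minus young) were below 0, against 6095 of all 14217 genes. Their median was -0.15, against 0.03 over all genes. All 38 bright genes were below 0, from -0.34 to -0.03, against 599 of the 817 other bright genes. The bright ribosomal protein genes moved together on each array, so their signs are not separate observations. In limma, 0 of the 48 passed an adjusted p of 0.05, while 5.16% of all genes did (394 higher, 2.77%, and 340 lower, 2.39%). At an unadjusted p under 0.05, 15 of the 48 were lower and 0 higher, against 8.82% of all genes lower. Among bright genes, 13 of the 38 were lower at that p, against 245 of the 817 others. With sample numbers as a block within each age, a fit added after the data were seen, 3 of the 48 passed and were lower. They were Rpl39 (limma adjusted p = 0.00826), Rpl3 (0.0437) and Rps28 (0.0467). In that fit 590 of all 14217 genes were lower, and 8.48% were called in either direction. It takes deviations shared by same-numbered arrays out of the error, although the numbers pair no old with young livers. Its p-values for age may therefore be too small.

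Large- and small-subunit genes had medians close to each other, and the difference between them was not tested. The 26 bright large-subunit genes had a median difference of -0.175, with 9 at an unadjusted p under 0.05, and the 12 bright small-subunit genes one of -0.16, with 4. The 95% intervals of the bright genes reached from -0.67 to 0.36, both from the gene with the widest spread, Rpl37a, a zinc-finger protein of the large subunit. A fall larger than that lower bound therefore lay outside the interval of every bright gene. Values rest on the spread between livers, and rats that shared a cage were not named in the labels. In whole liver, fewer cells that make a transcript and less of it per cell cannot be told apart.

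**Figure D2:**
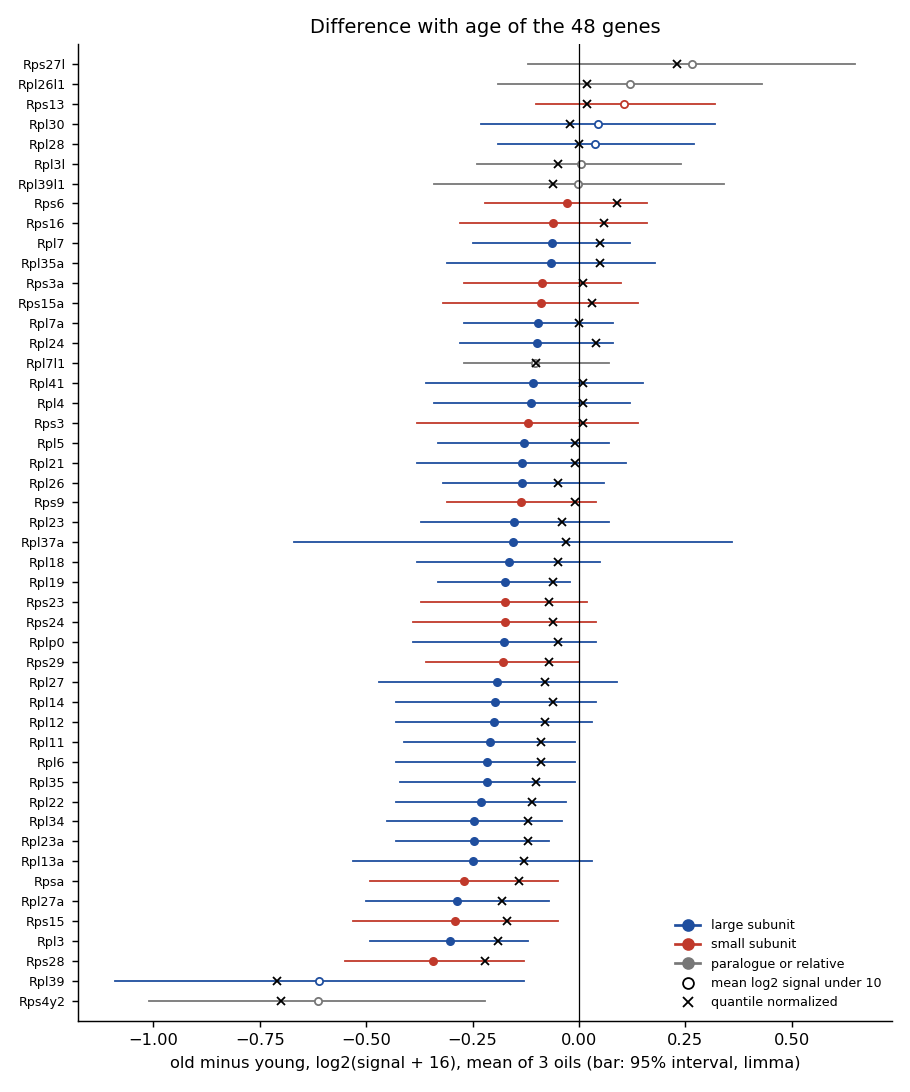
Difference between old and young livers (x axis, log2(signal + 16), averaged over 3 oils) for each of the 48 genes (y axis), with the 95% interval of the limma fit; filled circles are genes with a mean level of at least 10, open circles dimmer ones, and crosses the same difference after quantile normalization. All 38 filled circles lie below 0, and after quantile normalization the crosses of the bright genes lie to the right of their circles.

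Among the small-subunit genes, Rps28 had the smallest p. It encodes a short protein near the messenger's exit from the small subunit. At 6 months Rps28 had a signal of 3397.5, 3843.7 and 3999.9 in the 3 livers on olive oil, 3527.2, 3346.2 and 3330.3 on sunflower oil and 4005.0, 3183.2 and 3735.7 on fish oil. At 24 months the Rps28 signal was 4148.2, 2650.6 and 2395.3 with olive oil, 2852.9, 2559.9 and 2744.9 with sunflower oil and 2832.2, 2553.3 and 2986.3 for fish oil. Every old liver but the first of olive oil, which had the highest Rps28 signal of all 18, was below every young liver. The difference was -0.34 ± 0.1 (standard error of the fit, 95% interval -0.55 to -0.13, limma adjusted p = 0.0564). Without that liver it was -0.42 with an adjusted p of 0.0056.

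Rps15 and Rpsa followed. Rps15, whose start is printed above with its run of pyrimidines, differed by -0.29 (adjusted p = 0.152). Rpsa, which is both a small-subunit protein and the laminin receptor precursor, differed by -0.27 (adjusted p = 0.141). Its 2 other probe sets differed by -0.34 and -0.20, at levels of 10.72 and 9.18. Rps3, which lines the entry of the messenger channel, differed by -0.12 (adjusted p = 0.624).

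Rps6 is the small-subunit protein that S6 kinase phosphorylates downstream of mTORC1. The Rps6 signal in young livers was 3392.2, 4270.1 and 3860.4 for olive oil, 3870.8, 3587.8 and 4273.6 for sunflower oil and 3896.1, 3536.2 and 4138.3 for fish oil. In old livers it was 4901.5, 3552.4 and 3694.4 for olive oil, 3603.8, 3412.5 and 3937.4 for sunflower oil and 3956.6, 3204.7 and 4001.8 for fish oil. The first old olive oil liver was the highest of all and the second old fish oil liver the lowest, and the other old livers lay within the range of the young ones. The difference of -0.03 was the smallest of the bright genes (± 0.0888, 95% interval -0.22 to 0.16, limma adjusted p = 0.896), and it turned to 0.09 after quantile normalization.

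Among the large-subunit genes, Rpl3, which lies next to the peptide-joining centre, had the smallest p. Young livers had Rpl3 signals of 4613.7, 5351.8 and 5029.0 on olive oil, 4427.5, 4766.5 and 5217.8 on sunflower oil and 4793.5, 4963.2 and 5064.9 on fish oil. The old livers had Rpl3 signals of 5361.1, 3766.0 and 3822.3 on olive oil, 3665.7, 3704.8 and 3833.1 on sunflower oil and 4182.4, 3292.8 and 4459.2 on fish oil. In sunflower oil and fish oil each old liver was below each young one, and in olive oil 2 old livers were below and the first above all young ones. The Rpl3 difference was -0.30 ± 0.0888 (95% interval -0.49 to -0.12, limma adjusted p = 0.0573). A dimmer Rpl3 probe set, at a level of 6.85, differed by -0.06 ± 0.213.

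Rplp0 is the base of the stalk that recruits elongation factors, and is often used as a reference gene. At 6 months Rplp0 had a signal of 4063.4, 4124.9 and 4486.3 in the 3 livers on olive oil, 4350.7, 4020.3 and 4081.9 on sunflower oil and 4482.8, 3582.7 and 4070.0 on fish oil. At 24 months the Rplp0 signal was 5480.3, 3251.7 and 3167.2 with olive oil, 3259.6, 3749.8 and 3570.2 with sunflower oil and 3740.8, 3334.7 and 3778.1 for fish oil. With sunflower oil the old livers were all below the young, with fish oil they overlapped, and with olive oil 2 old livers were below and 1 above all young livers. The Rplp0 difference was -0.18 ± 0.102 (95% interval -0.39 to 0.04, limma adjusted p = 0.338).

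Rpl5 and Rpl11 form a complex with 5S RNA that binds MDM2 when ribosome assembly is disturbed. The Rpl5 signal in young livers was 4153.1, 4853.9 and 4943.5 for olive oil, 4128.5, 4201.8 and 4776.4 for sunflower oil and 4318.0, 3712.9 and 4724.0 for fish oil. In old livers it was 5277.8, 3953.7 and 3973.7 for olive oil, 4014.7, 3538.3 and 3982.8 for sunflower oil and 4766.4, 3313.5 and 3754.5 for fish oil. The ages overlapped in olive oil and fish oil and not in sunflower oil, and the Rpl5 difference was -0.13 ± 0.0943 (limma adjusted p = 0.463).

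Young livers had Rpl11 signals of 3392.8, 4007.7 and 4262.1 on olive oil, 4426.9, 3964.6 and 3948.4 on sunflower oil and 4387.7, 3919.5 and 4017.6 on fish oil. The old livers had Rpl11 signals of 5159.7, 3279.6 and 3496.0 on olive oil, 3098.8, 3489.8 and 3211.1 on sunflower oil and 3559.2, 3352.3 and 3027.1 on fish oil. For Rpl11 the old livers lay below the young with sunflower oil and with fish oil. With olive oil the first young liver was low and the first old liver the highest of all 18. The difference was -0.21 ± 0.0929 (95% interval -0.41 to -0.01, limma adjusted p = 0.201).

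Further large-subunit genes at an unadjusted p under 0.05 were Rpl23a, which lies at the exit of the peptide tunnel (-0.25, adjusted p = 0.104), and Rpl27a (-0.29, adjusted p = 0.114). Rpl22 (-0.23, adjusted p = 0.173), Rpl34, Rpl19, Rpl35 and Rpl6 were the others, with adjusted p-values of 0.148 to 0.216. Rpl13a, also known as part of a complex that silences inflammatory messengers, differed by -0.25 (adjusted p = 0.3).

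The dim genes spread more widely than the bright ones. Rps4y2 is a copy of Rps4, a small-subunit protein. At 6 months Rps4y2 had a signal of 56.1, 89.5 and 100.2 in the 3 livers on olive oil, 108.6, 75.0 and 49.5 on sunflower oil and 46.4, 84.1 and 173.5 on fish oil. At 24 months the Rps4y2 signal was 28.6, 38.7 and 36.3 with olive oil, 52.5, 69.9 and 51.9 with sunflower oil and 41.8, 74.2 and 47.3 for fish oil. In olive oil each old liver was below each young one, and in the other oils the ages overlapped. The third young fish oil liver had the highest signal. The difference was -0.61 ± 0.188 (95% interval -1.01 to -0.22, limma adjusted p = 0.067), and this was the gene that passed after quantile normalization (adjusted p = 0.0402) and cyclic loess (0.0451).

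Rpl39, the small protein of the peptide tunnel, was read by a dim probe set. Its signal ran from 13.7 through a median of 42.2 to 105.4 in the 9 young livers and from 12.7 through 20.4 to 34.8 in the 9 old. In young livers it was 70.9, 82.7 and 105.4 in the first of olive, sunflower and fish oil. In the second it was 19.8, 19.1 and 42.2, and in the third 13.7, 37.9 and 64.9. Rpl39 passed in fits that take out the sample number within each age or leave out the number 2 arrays at 6 months. The former fit leaves differences between sample numbers out of the error, so its p-values for age may be too small. The Rpl39 difference was -0.61 ± 0.228 (95% interval -1.09 to -0.13, limma adjusted p = 0.13), and it was -1.16 in fish oil, -0.63 in sunflower oil and -0.05 in olive oil (adjusted p of the difference between oils 0.935).

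The genes above 0 were dim as well. Rps27l, a copy of Rps27 that p53 is known to induce, had the smallest p among them. The Rps27l signal in young livers was 215.8, 125.0 and 340.6 for olive oil, 205.5, 166.4 and 241.4 for sunflower oil and 240.4, 194.5 and 298.8 for fish oil. In old livers it was 310.4, 229.3 and 437.8 for olive oil, 241.1, 189.0 and 361.0 for sunflower oil and 256.1, 172.3 and 275.5 for fish oil. The ages overlapped in each oil, and the difference was 0.27 ± 0.183 (95% interval -0.12 to 0.65, limma adjusted p = 0.434). Rps27 itself was not analysed here.

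Young livers had Rps13 signals of 7.8, 7.0 and 5.5 on olive oil, 6.8, 10.4 and 17.1 on sunflower oil and 20.3, 11.9 and 12.8 on fish oil. The old livers had Rps13 signals of 11.2, 6.9 and 10.1 on olive oil, 6.3, 17.9 and 13.7 on sunflower oil and 16.9, 18.5 and 16 on fish oil. The Rps13 signals lay around the pseudocount of 16 and overlapped between ages in each oil, and the difference was 0.11 ± 0.0995 (adjusted p = 0.587).

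At 6 months Rpl26l1 had a signal of 12.1, 24.6 and 23.9 in the 3 livers on olive oil, 9.3, 6.9 and 26.0 on sunflower oil and 22.3, 21.5 and 16.7 on fish oil. At 24 months the Rpl26l1 signal was 22.9, 21.8 and 20.2 with olive oil, 10, 18.8 and 36.8 with sunflower oil and 14.9, 17.6 and 26.0 for fish oil. The Rpl26l1 signals ran from 6.9 to 36.8 and overlapped between ages in each oil, and the difference was 0.12 ± 0.145 (adjusted p = 0.684). Rpl3l, a muscle form of Rpl3, differed by 0.0036 ± 0.114, Rpl28 by 0.04 and Rpl30 by 0.04.

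**Figure D3:**
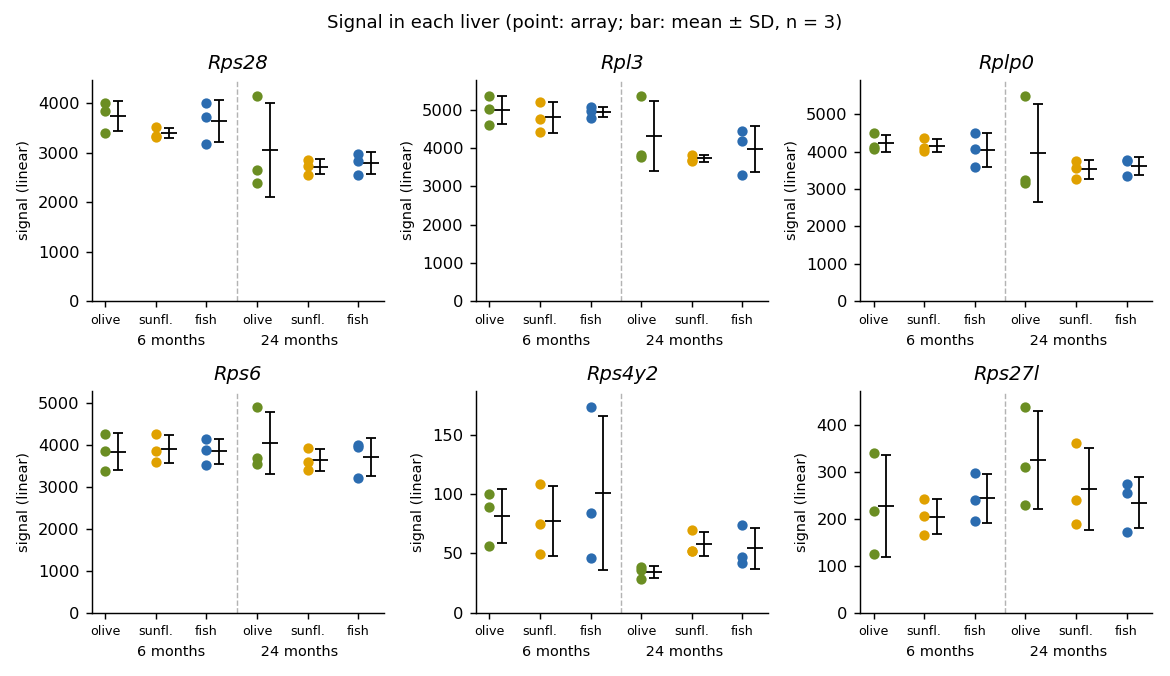
Linear signal (y axis) of 6 ribosomal protein genes in each liver, by oil at 6 and 24 months (x axis); points are arrays, and the bar beside them is the mean ± SD of 3. Within each oil Rps28 and Rpl3 were lower in old than in young livers except the first olive oil liver (4148.2 and 5361.1), Rps6 overlapped, and Rps4y2 and Rps27l had signals of at most 173.5 and 437.8.

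The first olive oil array at 24 months decided the count of genes that passed. Without it, 12 of the 48 were lower and 0 higher at an adjusted p of 0.05 in limma, against 3.64% of all genes lower. They were the large-subunit genes Rpl3, Rpl6, Rpl11, Rpl22, Rpl23a, Rpl27a, Rpl34 and Rplp0 and the small-subunit genes Rps15, Rps28, Rps29 and Rpsa. Their differences ran from -0.42 for Rps28 to -0.24 for Rps29, and the median over the 48 was -0.22. No label gives a reason to leave the array out, and the difference between ages with it stands as the result.

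Leaving out another array gave at most 1 gene that passed. It was Rps4y2 without the first fish oil array at 6 months (-0.74, adjusted p = 0.0215) or without the third sunflower oil array at 6 months (-0.69, adjusted p = 0.0488). Without the second fish oil array at 6 months it was Rps28 (-0.37, adjusted p = 0.0495). In these fits 574, 657 and 720 of all 14217 genes passed in turn.

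Other bright probe sets were also lower on balance, and the difference between them and the ribosomal protein genes was not tested. The 817 other bright genes had a median difference of -0.13, with 72 lower and 8 higher called. Between levels of 10 and 12 the median was -0.175 for the 28 ribosomal protein genes and -0.15 for all 702 genes there. At a level of 12 or more it was -0.15 for 10 and -0.11 for all 153. Without the first old olive oil array these medians lay further apart, at -0.25 against -0.176 and at -0.206 against -0.119, and all 38 bright ribosomal protein genes had a median of -0.236 against -0.147 for the other bright genes. Below a level of 6 the median of all genes was above 0 (0.06), and that of the 7 ribosomal protein genes was 0.04.

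The shift was smaller under other scalings of the arrays. After quantile normalization, which gives each array the same distribution, the median of the 48 was -0.05, and in the 10-to-12 and 12-and-over bins it was -0.055 and -0.055 for ribosomal proteins and -0.03 and -0.006 for all genes. With quantile normalization and without the first old olive oil array the median of the 48 was -0.091, that of the bright ones -0.097 and that of the other bright genes -0.018. After cyclic loess the median of the 48 was -0.03. Quantile normalization moved the median of all genes from 0.03 to -0.02 and cyclic loess moved it to -0.009. Centring each array on the other bright genes gave -0.02 for the 48, with 0 past the threshold, and moved the median of all genes to 0.163, with 1508 higher and 199 lower called. Rps28 differed by -0.22 and Rpl3 by -0.19 after quantile normalization.

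Bright probe sets can saturate, which shrinks differences between them. The brightest ribosomal protein probe set stood at 56.2% to 72.5% of the highest signal of its array. The median SD within groups was 0.21 for ribosomal proteins between levels 10 and 12 and 0.16 at 12 and over, against 0.24 and 0.17 for all genes and 0.27 below a level of 6. The part of saturation in the size of the differences was not tested.

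**Figure D4:**
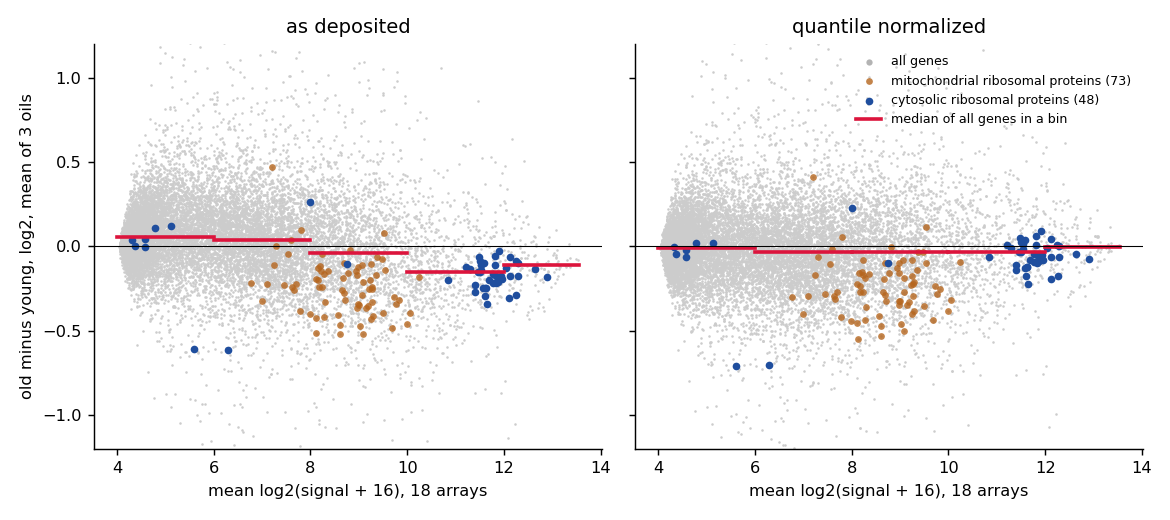
Difference between old and young livers averaged over 3 oils (y axis, log2) against the mean level (x axis, log2(signal + 16)) for all 14217 genes, as deposited and after quantile normalization; blue points are the 48 cytosolic and brown points the 73 mitochondrial ribosomal protein genes, red lines the median of all genes in a bin of level, and 72 genes past ± 1.2 are not drawn in either panel. The blue points at a level of 10 or more moved from a median of about -0.17 towards 0, and the brown points stayed low.

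Probe sets left out of the 48 gave a like picture. Of 36 further ribosomal protein probe sets that carry several symbols, 34 were below 0 with a median of -0.185. Of the 36, 0 were called by limma and 12 had an unadjusted p under 0.05. In the same fit, of all probe sets, 6095 of the 14217 genes were below 0 and 3067 had such a p. Of the 817 other bright genes, 599 were below 0 and 289 had such a p. The 33 bright probe sets of the 36, which held all 12, ran from -0.39 to -0.04. Dimmer probe sets of the same genes differed less in Rpl14 (-0.06, against -0.20 for the brighter), Rpl3, Rpl7 (-0.03, against -0.06) and Rpl7l1 (-0.01, against -0.10), and that of Rps24 was above 0 (0.29, at a level of 4.97).

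The bright genes moved as a unit from liver to liver. After group means were taken off, the median correlation between 2 of the 38 genes over the 18 arrays was 0.75, and 88.9% of pairs were over 0.5. For the 817 other bright genes the median was 0.10 with 14.5% of pairs over 0.5, and for the 10 dim ribosomal protein genes it was -0.07. These pairs share their arrays and scaling, and the values describe the arrays. On the first olive oil array at 24 months the bright genes had a median deviation of 0.401. On the other arrays of that group it was -0.177 and -0.149. The correlations were not computed without that first array, so how far they rest on it was not tested. Taking off the median of the 38 genes on each array brought their median correlation to -0.05 and their median SD within groups from 0.20 to 0.09.

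Genes with and without the printed start motif had overlapping differences. The 10 bright genes with a C and pyrimidines at the annotated start had a median of -0.19 (-0.29 to -0.07), and the 24 bright genes with other starts one of -0.14 (-0.34 to -0.03). The 24 may include genes whose motif is hidden by an annotated start that is off by a few bases.

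Within each oil the differences were again small, and no ribosomal protein gene passed without a replicate block. In olive oil the median of the 48 was -0.08 (0.02 over all genes), with 0 called by limma (0.141% of all genes) and 1 lower at an unadjusted p under 0.05 (4.55% of all genes lower), Rps4y2 (-0.93 ± 0.325, adjusted p = 0.331). Rps28 (-0.33), Rps27l (0.55), Rpl3 (-0.23) and Rpl27a (-0.21) came next by p. The 95% intervals of the bright genes reached from -1.03 to 0.76.

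In sunflower oil the median was -0.21 (0.01 over all genes), with 0 called by limma (0.0% of all genes) and 2 lower at an unadjusted p under 0.05 (3.65% of all genes lower). They were Rpl23a (-0.35 ± 0.148, adjusted p = 0.586) and Rpl3 (-0.36, adjusted p = 0.591). Rpl12 (-0.39), Rpl11 (-0.33) and Rpl22 (-0.32) followed.

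In fish oil the median was -0.17 (0.05 over all genes), with 0 called by limma (1.71% of all genes) and 4 lower at an unadjusted p under 0.05 (6.43% of all genes lower). They were Rpl39 (-1.16 ± 0.394, adjusted p = 0.139), Rpl7l1 (-0.32), Rpl6 (-0.39) and Rps28 (-0.38). Rpl3 (-0.32) was next. With sample numbers as a block within each age Rpl39 passed in fish oil (limma adjusted p = 0.0233), as did 2.29% of all genes. Leaving out 1 array moved the fish oil median between -0.24 and -0.08 and the olive oil median between -0.22 and 0.006.

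Overlap between ages within a single oil varied with the oil and with the scaling of the arrays. With sunflower oil the 3 old livers were all below the 3 young in 28 of the 48 genes (6.56% of all genes), among them Rplp0, Rpl3, Rpl5, Rpl11, Rps28 and Rpsa. With fish oil this held for 15 (8.38% of all genes), among them Rpl3, Rpl11, Rpl39, Rps28 and Rpsa, and with olive oil for 1, Rps4y2 (5.73% of all genes). In each oil 0 genes of the 48 were higher in all old livers. After quantile normalization the counts were 16 with sunflower oil (7.53% of all genes), 4 with fish oil (11.2%) and 2 with olive oil (7.64%). The bright genes moved together on each array, so the genes in these counts are not separate observations, and the difference between the counts was not tested.

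Over all oils, 0 of the 48 had 9 old livers below 9 young ones (0.246% of all genes). Without the first old olive oil liver 7 did, Rpl19, Rpl23a, Rpl27a, Rpl34, Rps28, Rps29 and Rpsa (0.893% of all genes).

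The difference between oils in ageing was tested directly with limma's moderated F test. No ribosomal protein passed it (0.0% of all genes), and 0 had an unadjusted p under 0.05. The smallest p was that of Rpl7l1 (adjusted p = 0.903), followed by Rpl39 (0.935), and by Rpl6, Rpl11 and Rpl30 (0.969 each). Rpl7l1 differed by 0.14 in olive oil, -0.14 in sunflower oil and -0.32 in fish oil.

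The oils themselves separated the ribosomal protein genes little. In 9 comparisons of oils, averaged over ages and at each age, 0 of the 48 passed limma's adjusted p. Averaged over ages, fish minus olive called 0.0141% of all genes (2 genes), and the other 8 comparisons 0.0%. The comparisons share arrays and are given side by side.

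Averaged over ages, the median of the 48 was -0.075 for fish minus olive, 0.001 for fish minus sunflower and -0.076 for sunflower minus olive. The bright genes lay between -0.20 and 0.03, between -0.09 and 0.11, and between -0.24 and 0.01 in turn, with 95% intervals reaching from -0.83 to 0.43, from -0.66 to 0.60 and from -0.80 to 0.46. The dim Rps13 had the smallest p, for fish minus olive (0.41 ± 0.122, adjusted p = 0.62). It was the 1 gene of the 48 under an unadjusted 0.05, against 826 of all 14217 genes in that comparison. After it came Rpl28 (0.22), Rpl3l (-0.23), Rps4y2 (0.30) and Rpl5 (-0.15). For fish minus sunflower Rpl28 had the smallest p (0.28, adjusted p = 0.738), then Rps13 (0.21), Rpl7l1 (0.12), Rpl3l (-0.15) and Rpl39 (0.27), and for sunflower minus olive Rpl6 (-0.24, adjusted p = 0.994), then Rps13 (0.20), Rpl7l1 (-0.14), Rpl39l1 (0.28) and Rpl30 (0.21).

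At 6 months the medians of the 48 were -0.008, -0.017 and -0.01 in the same order. Rps13 (0.44) and Rpl39 (0.88) had an unadjusted p under 0.05 for fish minus olive, as did 585 of all 14217 genes. Rpl3l (-0.32), Rpl7l1 (0.21) and Rpl30 (-0.20) followed. For the other pairs 0 of the 48 had such a p, against 573 and 550 of all genes. The smallest p for fish minus sunflower were those of Rpl7l1 (0.21), Rpl39 (0.54), Rpl26l1 (0.32), Rpl30 (-0.25) and Rps13 (0.18). For sunflower minus olive they were those of Rps13 (0.25), Rpl26l1 (-0.30), Rpl39 (0.34), Rps16 (0.15) and Rps28 (-0.14).

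At 24 months the medians were -0.129, 0.015 and -0.161. An unadjusted p under 0.05 was reached by Rps13 for fish minus olive (0.39, adjusted p = 0.591), Rpl28 for fish minus sunflower (0.41, adjusted p = 0.529) and Rpl6 for sunflower minus olive (-0.39). Of all 14217 genes, 1135, 1310 and 568 reached it in turn. For fish minus olive Rpl28 (0.40), Rpl6 (-0.33), Rpl7l1 (-0.25) and Rpl24 (-0.22) followed. For fish minus sunflower Rps13 (0.23), Rpl12 (0.20), Rps24 (0.15) and Rpl3l (-0.13) followed, and for sunflower minus olive Rpl7l1 (-0.28), Rps4y2 (0.55), Rpl39l1 (0.45) and Rpl30 (0.36). The first old olive oil array is in the olive oil side of these comparisons.

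Mitochondria have ribosomes of their own, whose proteins are encoded in the nucleus and serve the respiratory chain. In limma averaged over oils, 13 of 73 mitochondrial ribosomal protein genes were lower with age and 0 higher. Of all genes, 2.39% were lower and 2.77% higher. The median of the 73 was -0.24. Their mean level on an array was 8.38 to 9.04, dimmer than the bright cytosolic genes, and after quantile normalization their median was -0.27, with 11 lower. Mrpl2 differed by -0.52 (adjusted p = 0.00459), Mrpl23 by -0.52 (0.00645), Mrpl58, which releases stalled peptides, by -0.51 (0.00643) and Mrps16 by -0.49 (0.0133). Leaving out 1 array gave between 8 and 28 lower genes, the highest without the first old olive oil array. The difference between the cytosolic and the mitochondrial list was not tested.

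Other genes with TOP messengers encode mostly translation factors. Of 13 measured, 0 were called by limma, 1 had an unadjusted p under 0.05, and the median was -0.11, or 0.01 after quantile normalization. Eef1a1, the elongation factor that brings transfer RNA, differed by -0.05 and Eef2, which moves the ribosome along, by -0.22. Rack1, a small-subunit protein whose symbol the choice of genes did not take in, differed by -0.12 at a level of 11.14.

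Of 29 initiation factors 1 was higher, the cap-binding Eif4e (0.37, limma adjusted p = 0.0385), and 0 were lower. Of 11 elongation and termination factors 1 was lower, Eef2k, the kinase that slows Eef2 (-0.63, adjusted p = 0.0476). Of all genes, 2.77% were higher and 2.39% lower. Leaving out 1 array in turn ended the call of Eif4e and that of Eef2k in 13 of 18 cases each, with adjusted p-values of 0.0813 and 0.0885 without the number 2 arrays at 6 months. In that last setting 1 initiation factor was lower and 0 higher, when 311 of all 14217 genes were lower and 317 higher.

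In the mTORC1 list of 28 genes, the repressor of initiation Eif4ebp3 was lower (-1.73 ± 0.2, limma adjusted p = 0.000231) and Eif4e higher. The kinase Mtor differed by -0.0061, S6 kinase Rps6kb1 by 0.23, Eif4ebp1 by -0.26 and Larp1 by 0.11, none past the threshold. These are transcript levels and do not measure kinase activity.

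Of 45 ribosome biogenesis genes 1 was higher, the nucleolar helicase Ddx21 (0.46, limma adjusted p = 0.0195; 0.0864 without the number 2 arrays at 6 months), against 2.77% of all genes higher. That setting left 0 higher and 1 lower, Eif6 (0.0381), an assembly factor of the large subunit. Of 12 RNA polymerase I genes 1 was higher, Taf1c (0.59, adjusted p = 0.0232; 0.0656 after quantile normalization). In the list on ribosome stress, MYC and p53, 4 of 12 were higher, against 2.77% of all genes, and 0 lower. They were Ccng1 (1.01, adjusted p = 0.00283), the cell cycle inhibitor Cdkn1a (1.33, 0.0266), Myc (1.00, 0.0187) and Mdm2, the ligase that Rpl5 and Rpl11 bind (0.39, 0.0307). Without 1 array the call of Mdm2 ended in 10 of 18 cases and that of Cdkn1a in 4. Without the number 2 arrays at 6 months 3 were higher and 1 lower, Nop53 (-0.30 with all arrays; adjusted p = 0.047 there), and Cdkn1a had an adjusted p of 0.0962. Of 12 genes of the integrated stress response 1 was higher, the double-stranded RNA kinase Eif2ak2 (0.69, adjusted p = 0.00873), against 2.77% of all genes. Without the number 2 arrays at 6 months 1 of these 12 was higher and 1 lower.

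Few cell type markers passed the test with age. Of 9 hepatocyte markers 1 was lower, Apoa1 (-0.39, limma adjusted p = 0.0388), with a list median of -0.16 and array means of 12.45 to 12.78 in young and 12.07 to 12.72 in old livers. After quantile normalization the Apoa1 call ended (adjusted p = 0.0736; list median -0.06), as it did in 13 of 18 cases with 1 array left out. Of 9 macrophage markers 1 was higher, Cd68 (0.72, adjusted p = 0.0439), with a median of 0.38 and array means of 7.23 to 8.04 and 7.63 to 8.91. The Cd68 call ended after quantile normalization (adjusted p = 0.0691), without the number 2 arrays at 6 months (0.104) and in 12 of 18 cases with 1 array left out, the first old olive oil array among them. Of 9 monocyte and granulocyte markers 0 were called, with a median of 0.63 and array means of 5.87 to 6.13 and 5.93 to 8.06. An unadjusted p under 0.05 was reached by 7 of these 9, against 3030 of all 14217 genes. No marker was listed at 0 on any array. The part of cell makeup in the ribosomal protein differences was not tested.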

How the data were processed

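Per the labels' protocols, RNA came from RNAlater-stored liver by RNeasy extraction and was labelled as biotinylated cRNA, 1 array per rat. The values are the authors' deposited intensities, 1 per probe set and liver. RMA and Partek are the tools listed in the submitters' processing notes, and no version is listed. The deposited intensities were linear, up to 14085.0, with a common trimmed mean, which RMA does not give, so how they were made remains not given in the sources used. Of all values, 47.3% were under the pseudocount of 16.

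Of 31042 probe sets, 20826 carried 1 gene symbol in the platform annotation, 436 several and 9780 none. A gene was read by its brightest probe set (mean log2(signal + 16)), and all 48 ribosomal protein symbols were found in the RefSeq gene table. The 48 genes had 55 probe sets in all. 2 symbols ending in -ps and a number were treated as pseudogenes.

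A mean per group was fitted over all 18 arrays on log2(signal + 16) with lmFit and eBayes of limma 3.58.1 (R 4.3.3), which left 12 residual degrees of freedom and a prior of 4.32. Benjamini-Hochberg adjustment ran over 14217 genes within each of 13 comparisons, with a threshold of 0.05, and the rows of the ribosomal proteins were then read out. All p-values for genes are limma's. The code was tested on simulated data. Precision is limited by the number of arrays, 3 in each group, and no 2 arrays held identical values. Python 3.11.15 with numpy 2.4.6, pandas 2.3.3 and matplotlib 3.10.9 was used for preparation and figures.

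The genes, lists and alternatives were chosen with earlier results of these data known. Genes past the threshold would have been named by size. With under 5 such genes, those with the 5 smallest p-values are named, and a set of well-known ribosomal proteins, the 3 brightest and the 3 dimmest were given in any case. From each list, up to 4 genes past the threshold were named. Alternatives were quantile normalization, cyclic loess, pseudocounts of 1 and 64, a minimum mean level of 6, the mean of a gene's probe sets, all probe sets, a replicate block over both ages, and leaving out each array, the number 2 arrays at 6 months or the third fish oil array at 24 months. Centring on bright genes, quantile normalization without the first old olive oil array, and a replicate block within each age were added after the data were seen. The sample numbers come from the titles. Deviations of same-numbered arrays from their group means correlated over 0.1 in all 9 pairs within 6 months (0.15 to 0.46), in 2 of 9 within 24 months (-0.11 to 0.20) and in 6 of 27 across ages (-0.08 to 0.18), so the numbers were taken to pair the samples at 6 months and not at 24 months or across ages.

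Further marker lists were read as a check of cell makeup. Of 11 T and NK cell markers 1 was higher with age by limma, of 10 exocrine pancreas markers 1 was lower, and 0 were called of 4 B and plasma cell, 10 stellate cell and fibroblast, 8 endothelial, 6 cholangiocyte, 4 erythroid and 6 adipocyte markers, where 0, 4, 1, 2, 0 and 1 had an unadjusted p under 0.05.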

Additional observations from a re-analysis of the deposited data

Results flagged for a closer look

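In each age, the 9 livers of a gene were searched for a highest or lowest value whose gap to the next exceeded Dixon's 95% critical share of the range. Chance flags about 1 in 20 such groups, not counting differences between the 3 oils that the 9 livers pool. The share of all genes flagged was not computed. At 24 months 27 of the 48 ribosomal protein genes were flagged, all for a highest value in the first olive oil liver, and since these genes move together on an array the flags are not separate events. Rplp0 was at 5480.3 there, Rpl11 at 5159.7, Rps6 at 4901.5 and Rps28 at 4148.2. The median deviation of the 38 bright genes on that array was 0.401, and the share of the 48 probe sets in its signal was 3.25%. After quantile normalization the same median was 0.27, and that of the third fish oil array 0.196, against -0.136 to -0.038 on the other old arrays. The cause was not tested.

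At 6 months 3 of the 48 genes were flagged, among them Rpl11 for a lowest signal of 3392.8 in the first olive oil liver and Rps4y2 for a highest signal of 173.5 in the third fish oil liver.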

How the results depend on the processing

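Of the 48 genes, 0 passed the adjusted p for ageing averaged over oils. The count was 1 with quantile normalization, 1 with cyclic loess (Rps4y2 in each), 1 with the mean of a gene's probe sets, 1 with sample numbers as a replicate block and 1 with quantile normalization without the first old olive oil array (Rps28 in each). It was 1 without the number 2 arrays at 6 months (Rpl39, -0.87, adjusted p = 0.0474), 2 with a pseudocount of 64 and 3 of 41 genes with a minimum mean level of 6 (Rpl3 and Rps28 in each, Rps4y2 in the latter). Leaving out 1 array gave 0 to 12. With the replicate block within each age it was 3 averaged over oils and 1 in fish oil (Rpl39, with 2.29% of all genes called there). That fit takes deviations shared by same-numbered arrays out of the error, and the numbers pair no old with young livers. Its p-values for age may therefore be too small. Otherwise, within each oil, for the difference between oils and in the 9 comparisons of oils, the count stayed 0 under all alternatives run, both replicate blocks included. For ageing averaged over oils, the main fit called 734 of all 14217 genes, quantile normalization 698 and cyclic loess 697. The mean of a gene's probe sets called 789, the block over both ages 1026 and that within each age 1206. Quantile normalization without the first old olive oil array called 909. Without the number 2 arrays at 6 months 628 passed, with a pseudocount of 64 859, and with the minimum level 795 of 7159.

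The median difference averaged over oils was 0.011 after centring on the bright ribosomal proteins and -0.22 to -0.119 with 1 array left out. In sunflower oil it was 0.02 after that centring and -0.234 to -0.2. In fish oil it was 0.029 after that centring, 0.057 after centring on other bright genes, 0.024 after cyclic loess and -0.24 to -0.083. In olive oil it was -0.22 to 0.006. Centring on the bright ribosomal proteins sets these genes near 0 by construction. Centring on other bright genes does so for those other genes and not for the ribosomal proteins.

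The count of lower mitochondrial ribosomal proteins (13) was 8 with a pseudocount of 1, 5 after centring on the bright cytosolic ones, 32 with quantile normalization without the first old olive oil array, and 8 to 28 with 1 array left out.

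Some differences near 0 changed sign. Rpl3l was -0.04 with cyclic loess, -0.11 with a pseudocount of 1, -0.05 with quantile normalization, -0.0081 with the latter without the first old olive oil array, and -0.06 to 0.06 with 1 array left out. Rpl5 was 0.03 after centring on the bright ribosomal proteins and 0.01 with cyclic loess. Rps3 was 0.0088 after centring on other bright genes, 0.04 on the bright ribosomal proteins and 0.0087 with quantile normalization. Rps6 was 0.10, 0.13 and 0.09 in that order, 0.11 with cyclic loess, 0.06 with quantile normalization without that array, and -0.08 to 0.0058 with 1 array left out.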
